A study of Mus musculus with 6 samples.

Results

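Integrins are the cell-surface receptors by which microglia and macrophages hold on to matrix, to other cells and to opsonized targets. The 10 chain genes followed here were chosen by name: the alpha chains Itgam, Itgax, Itgal, Itgav, Itga4, Itga6 and Itga9 and the beta chains Itgb2, Itgb1 and Itgb5, out of 49585 genes in the count files. All 10 had counts and all 10 passed the filter on low counts. They were compared between sorted brain microglia of wild-type mice (WT, n = 3 libraries) and of mice labelled IRF8KO (n = 3 libraries), read here as lacking the transcription factor IRF8. All mice, per the labels, were male and 3 months old. Microglia were isolated brain by brain without enzymes and sorted straight into TRIzol. The surface markers of the sort, the design of the Irf8 allele and whether WT and IRF8KO mice were littermates are not given in the sources used here. CD11b, the product of Itgam, is a usual marker in microglial sorts, and whether it was used here is not given either.

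Each integrin is a pair of 1 alpha and 1 beta chain, and a chain reaches the cell surface only with a partner. The beta2 integrins belong to leukocytes: Itgb2 pairs with Itgam (CD11b, complement receptor 3), Itgax (CD11c, complement receptor 4), Itgal (CD11a, of LFA-1) or Itgad. The alpha-v integrins bind matrix proteins, bridging proteins on dying cells and latent TGF-beta, with Itgb5, Itgb3, Itgb1, Itgb6 or Itgb8 as partner. Itgb1 also pairs with Itga4 (VLA-4, a receptor for VCAM1 and fibronectin), Itga6 (a laminin receptor) and Itga9 (a receptor for tenascin, osteopontin and other matrix proteins). An integrin binds its ligand firmly only after talin and kindlin have engaged the beta tail inside the cell.

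Depth was 3658917 to 10859529 gene counts in the WT libraries and 8994860 to 11098363 in the IRF8KO libraries. Levels are given as CPM, counts divided by a library size that was scaled by TMM, a correction for differences in RNA composition, whose factors ran from 0.694 to 1.41. Irf8 itself had 795, 851 and 1403 CPM in WT and 743, 650 and 850 in IRF8KO, a log2 fold change of −0.44 (SE 0.33) that missed the threshold (adjusted p = 0.368, edgeR). Whole-gene counts cannot separate an intact from a disrupted transcript, so directions rest on the libraries' labels. Apoe took 248965 to 486944 CPM in IRF8KO and 1185 to 3535 in WT. With library size alone the median log2 fold change of all genes moved from −0.11 to −0.61, and the called genes split into 651 higher and 1908 lower in place of 1064 and 1045. WT replicate 3 and IRF8KO replicate 2 stood apart from the rest of their groups for several chains. P-values measure the spread between these libraries.

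Among the 10 chains, Itgal and Itga4 rose in IRF8KO, Itgam and Itgb1 fell, and the 6 others did not pass the test. Calls are at an adjusted p under 0.05 (Benjamini-Hochberg) over the 11041 genes tested with edgeR's quasi-likelihood F test. Of all tested genes 19.1% were called: 9.64% were higher and 9.46% lower. The libraries of one group lay wholly above or below those of the other for 3 of the 10 chains (Itgam, Itgal and Itga4), against 37.9% of all tested genes. The median log2 fold change of the chains was −0.060, beside −0.11 for all tested genes, since rises and falls were mixed. In bulk samples fewer cells of a type and less RNA per cell cannot be told apart.

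**Figure D1:**
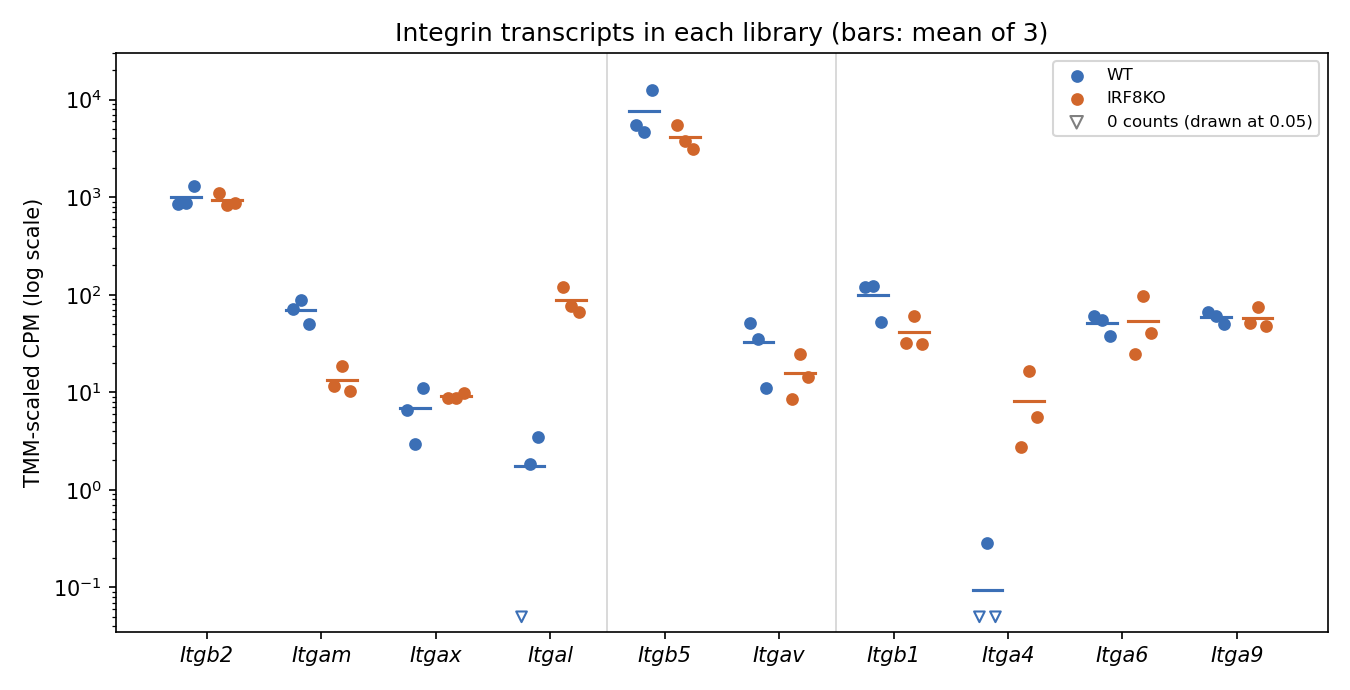
Level of each of the 10 chains in every library, in TMM-scaled CPM on a log axis; each point is 1 library, bars are group means (n = 3), and open triangles at 0.05 stand for 0 counts. Itgb5 and Itgb2 sat highest in both groups, and Itgal, Itga4 and Itgam were the 3 chains whose groups did not overlap.

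Itgb2 (ENSMUSG00000000290, chromosome 10, 77530252 to 77565708), the common beta chain of the leukocyte integrins, had 848, 874 and 1304 CPM in WT and 1098, 835 and 879 in IRF8KO. The groups overlapped, at 1009 ± 256 and 937 ± 141 CPM (SD, n = 3). Its log2 fold change was −0.11 (SE 0.31; edgeR adjusted p = 0.846). The sign turned without WT replicate 3, the highest library, to 0.15. With library size alone, where the median of all genes was −0.61, Itgb2 was called at −0.59 (edgeR adjusted p = 0.018).

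Itgam, the alpha chain of complement receptor 3, had 70.6, 87.5 and 50.6 CPM in WT and 11.6, 18.6 and 10.3 in IRF8KO. Every IRF8KO library lay below every WT library, and the mean fell from 69.6 ± 18.5 to 13.5 ± 4.46 CPM (SD, n = 3). This was a 5.14-fold decrease, a log2 fold change of −2.36 (SE 0.35; edgeR adjusted p = 7.3e-04). It was called in 19 of 19 alternative fits, with log2 fold changes from −2.86 to −2.10.

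The counts of Itgam come from a small part of its transcript. The gene (ENSMUSG00000030786) lies on the plus strand of chromosome 7, 128062640 to 128118491 in GRCm38. Of its 5024 exonic bases, 3450 (68.7%) also belong to Gm49368, a predicted gene on the same strand (128062683 to 128128160) that had 0 counts in all 6 libraries. A read inside shared exons is ambiguous and goes to neither gene. That leaves 1574 countable bases, 1186 of them (75.3%) in the last of 30 exon blocks. The CPM of Itgam therefore understates its level against other genes. The comparison between groups rests mostly on the 3′ end, with 1966 counts summed over WT and 374 over IRF8KO.

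Of the 10 chains, 7 had an entry in the RefSeq promoter table (GRCm38.p6). Of those, Itgam had the largest decrease, so the 250 bases before its start (chr7:128062390-128062639, plus strand, 5′ to 3′) are shown with the matches to a searched motif in capitals.

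Itgam: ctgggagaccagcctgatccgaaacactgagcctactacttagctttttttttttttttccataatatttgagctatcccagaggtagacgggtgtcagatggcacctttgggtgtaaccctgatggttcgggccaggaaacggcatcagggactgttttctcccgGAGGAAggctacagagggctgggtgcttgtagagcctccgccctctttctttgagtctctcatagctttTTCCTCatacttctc

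The capitals mark GAGGAA, the core letters bound by the myeloid factor PU.1, a partner of IRF8, at positions −84 to −79 counted from the annotated start, and its reverse complement TTCCTC at −15 to −10. These letters, on either strand, occur in 23.3% of 32817 such windows of mouse promoters. An ETS-IRF composite site (GGAA, then NN, then GAAA, in 2.30% of windows) and an interferon-stimulated response element (GAAA, then NN, then GAAA, in 2.97%) were also searched on both strands and did not match in any of the 7 windows. Itgb1 and Itgav also held GAGGAA or its reverse complement, at 1 place and at 2. A match is a description of the letters.

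Itgax, the alpha chain of complement receptor 4, lies 11.1 kb downstream of Itgam on the same strand (ENSMUSG00000030789, chromosome 7, 128129547 to 128150657). It was low, with 6.61, 2.97 and 11 CPM in WT and 8.67, 8.70 and 9.87 in IRF8KO. The IRF8KO libraries fell inside the WT range, and the log2 fold change was 0.41 (SE 0.53; edgeR adjusted p = 0.624). Leaving out 1 library gave 0.031 (without WT replicate 2) to 1.00 (without WT replicate 3), none of them called. The WT libraries were spread more widely, with an SD of 4.03 CPM around 6.87 against 0.683 around 9.08.

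Itgal, the alpha chain of LFA-1, was close to absent in WT and plain in IRF8KO. It had 0, 1.84 and 3.45 CPM in WT, from 0, 26 and 25 counts, and 120, 76.7 and 65.9 CPM in IRF8KO, from 745, 855 and 608 counts. The lowest IRF8KO library stood far above the highest WT library. The fitted difference was 46.7-fold, a log2 fold change of 5.54 (SE 0.66; edgeR adjusted p = 2.0e-04), called in 18 of the 18 alternative fits that could test it. Those fits ran from 33.6-fold (without WT replicate 1) to 74.0-fold (voom), with 72.0-fold without WT replicate 3. Itgal (ENSMUSG00000030830, chromosome 7, 127296260 to 127335138) lies 728 kb upstream of Itgam. Among these 3 alpha chains of 1 chromosomal stretch, one rose, one fell and one was not called.

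Within Itgb2's set of partners, the main alpha chain by transcript level was Itgam in every WT library and Itgal in 2 of 3 IRF8KO libraries. Levels of different genes were compared per kb of countable exon. Itgam made up 91.9% to 98.2% of the summed level of Itgam, Itgax, Itgal and Itgad in WT and 26.8% to 46.6% in IRF8KO. Itgal made up 0% to 1.5% and 46.1% to 66.6%. Itgax took 3.55% ± 2.78 in WT and 8.25% ± 2.40 in IRF8KO, and Itgad under 1% in every library. The summed level of the 4 alpha chains was 45.9 ± 10.8 CPM per kb in WT and 23.8 ± 4.54 in IRF8KO (SD, n = 3), so Itgb2, at 331 ± 83.9 and 307 ± 46.2, exceeded it in both. With full exon length, which ignores the uncounted bases of Itgam, the Itgam share was 78.1% to 94.6% in WT and 10.3% to 21.5% in IRF8KO, and Itgal, at 67.9% to 81.6%, led in all 3 IRF8KO libraries. These are transcript shares and say nothing of pairs at the surface.

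**Figure D2:**
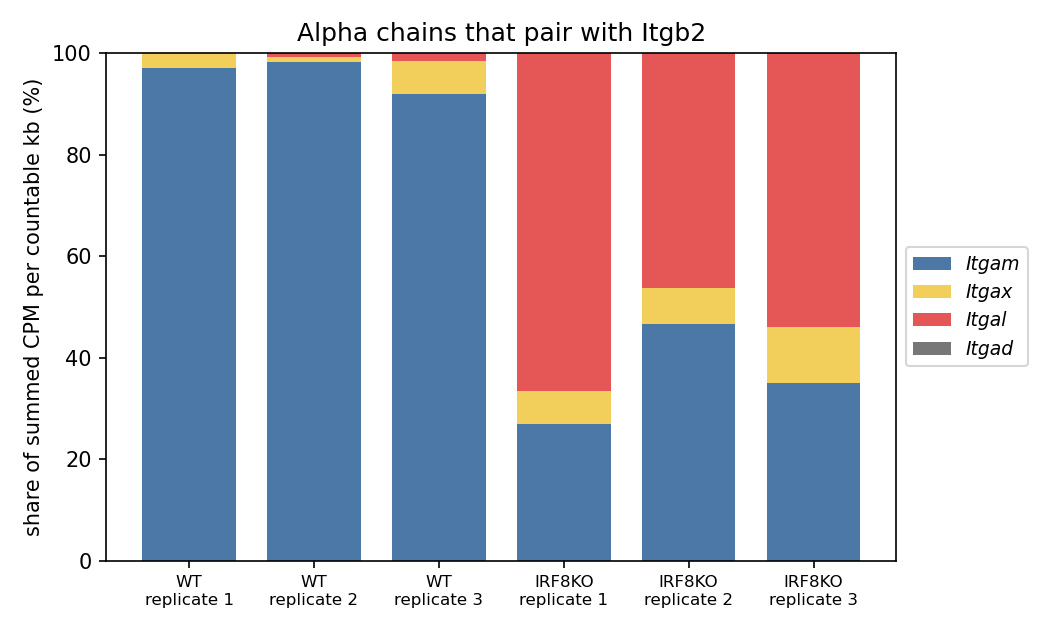
Share of each alpha chain that pairs with Itgb2 in the summed level of those chains, in percent of CPM per countable kb, for each of the 6 libraries. Itgam fills 91.9% to 98.2% of the WT bars, and Itgal takes 46.1% to 66.6% of the IRF8KO bars.

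A ratio of 2 chains inside a library does not move with library scaling, and 9 such ratios were compared. The log2 ratio of Itgam to Itgb2 was lower in IRF8KO by a difference of −2.29, that of Itgal to Itgb2 was higher by 6.70, and both pairs of groups lay apart. The exact two-sided permutation test gave p = 0.1 for each, the smallest that 3 against 3 libraries allow, and 0.18 after adjustment over the 9 pairs. With this permutation test and 3 against 3 libraries, no ratio can pass 0.05. The size for Itgal rests on the 0.5 added to the 0 count of WT replicate 1: it was 6.35 with 1 added and 5.24 without that library. It was 7.35 without WT replicate 2 and 7.52 without WT replicate 3.

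Itgb5 (ENSMUSG00000022817, chromosome 16, 33829665 to 33949338), a beta chain that pairs with alpha-v, had the highest level of the 10 chains. It had 5518, 4618 and 12567 CPM in WT and 5506, 3784 and 3119 in IRF8KO. The groups overlapped, and WT replicate 3 carried more than the sum of the other 2 WT libraries. The log2 fold change was −0.87 (SE 0.45; edgeR adjusted p = 0.196), and −0.26 without WT replicate 3. It was called with library size alone (−1.30, edgeR adjusted p = 0.011) and with a correction for GC content and length (−0.84, edgeR adjusted p = 0.038).

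Itgav (ENSMUSG00000027087, chromosome 2, 83724397 to 83806916), the alpha-v chain itself, had 51.6, 35.3 and 11 CPM in WT and 8.51, 24.5 and 14.2 in IRF8KO. WT replicate 3 lay inside the IRF8KO range. The log2 fold change was −1.04 (SE 0.53; edgeR adjusted p = 0.190). Without WT replicate 3 it was called at −1.38 (edgeR adjusted p = 0.033), and with the GC and length correction it was −0.36 (edgeR adjusted p = 0.463). Among exons of Itgav, 5.90% are shared with Gm13684 on the opposite strand, which had at most 19 counts in any library.

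Itgb3, the other beta chain that pairs with alpha-v in platelets and phagocytes, was not among the 10 but was the only further integrin chain called. It had 79.0, 67.0 and 99.1 CPM in WT and 19.3, 24.1 and 13.8 in IRF8KO. The groups did not overlap, and the mean fell from 81.7 ± 16.2 to 19.0 ± 5.14 CPM (log2 fold change −2.10, SE 0.31; edgeR adjusted p = 8.6e-04; 19 of 19 alternatives). Per countable kb, Itgb5 made up 97.8% ± 1.21 of the summed beta partners of alpha-v in WT and 98.8% ± 0.514 in IRF8KO. Itgb3 made up 0.719% ± 0.215 and 0.283% ± 0.0852. The log2 ratio of Itgav to Itgb5 differed by −0.15 between groups (exact permutation p = 0.9).

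WT replicate 3 differed from the other WT libraries in a way that followed GC content. Over the 10 chains, the log2 level of WT replicate 3 minus the mean of WT replicates 1 and 2 was 1.32 for Itgb5, whose exons have 57.0% GC, and −1.93 and −1.22 for Itgav and Itgb1, with 43.5% and 44.8%. As a description, GC content and that difference had a Spearman correlation of 0.84 over the 10 chains and 0.62 over 11034 tested genes, all taken from the same 3 libraries. With a correction for GC content and length, edgeR still called Itgam (−2.10, adjusted p = 5.9e-04), Itgal (5.64, 2.5e-04) and Itga4 (6.39, 9.1e-04). The part of GC content in the values was not tested otherwise.

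Itgb1 (ENSMUSG00000025809, chromosome 8, 128685654 to 128733200), the partner of most alpha chains outside the leukocyte family, had 120, 123 and 52.1 CPM in WT and 32.3, 60.2 and 31.5 in IRF8KO. The mean fell from 98.4 ± 40.1 to 41.3 ± 16.4 CPM (SD, n = 3), which is −1.25 on the log2 scale (SE 0.39; edgeR adjusted p = 0.041). WT replicate 3 lay below IRF8KO replicate 2, so the groups overlapped. The call was made in 12 of 19 alternatives. It was lost without WT replicate 1 (−1.10, edgeR adjusted p = 0.114), WT replicate 2 (−1.06, 0.140), IRF8KO replicate 1 (−1.08, 0.170) or IRF8KO replicate 3 (−1.07, 0.198). It was also lost with the GC and length correction (−0.72, edgeR adjusted p = 0.053), with opposite-strand counts (0.051) and with library size without Apoe (0.112).

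Itga4, the alpha chain of VLA-4, was the second chain that rose. It had 0, 4 and 0 counts in WT and 17, 183 and 51 in IRF8KO, or 0, 0.283 and 0 against 2.73, 16.4 and 5.53 CPM. The groups did not overlap, and the IRF8KO libraries differed widely among themselves. The log2 fold change was 5.81 (SE 1.07; edgeR adjusted p = 0.0032), and all 17 alternatives that could test it called it. With 4 counts in WT its size is loosely set: it ran from 4.88 without IRF8KO replicate 2 (edgeR adjusted p = 0.022) to 9.02 without WT replicate 2, the only WT library with counts. Of its exons, 8.04% are shared with Cerkl on the opposite strand, which had 0 counts. Itga4 (ENSMUSG00000027009) lies on chromosome 2, 79255426 to 79333123, plus strand.

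Of the 2 chains that rose, Itga4 has an entry in the promoter table and Itgal has none. The 250 bases before the start of Itga4 (RefSeq GRCm38.p6, chr2:79255176-79255425, plus strand, 5′ to 3′) are therefore shown.

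Itga4: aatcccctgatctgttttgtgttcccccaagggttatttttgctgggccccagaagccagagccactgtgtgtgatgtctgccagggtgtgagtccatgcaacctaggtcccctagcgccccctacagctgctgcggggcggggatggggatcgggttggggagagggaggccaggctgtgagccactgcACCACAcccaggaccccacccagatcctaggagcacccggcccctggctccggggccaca

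The capitals mark ACCACA at positions −60 to −55 from the start, the reverse complement of TGTGGT, the core letters bound by RUNX factors. These letters, on either strand, occur in 14.0% of the 32817 windows. The AP-1 letters TGANTCA (6.75% of windows) matched among the 7 chains only before Itgax, at −56 to −50, and no searched letters matched before Itgb5. The window of Itga9 held none either, but it lies 105 kb inside the gene as annotated here, at another start, while the other 6 windows end within 3 bases of the annotated start.

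Itga6 (ENSMUSG00000027111, chromosome 2, 71745616 to 71858416), a laminin receptor chain, had 59.9, 54.9 and 37.6 CPM in WT and 24.9, 95.9 and 40.2 in IRF8KO. IRF8KO held both the highest and the lowest library, and the log2 fold change was 0.084 (SE 0.43; edgeR adjusted p = 0.916). Without IRF8KO replicate 2 it was −0.63 (edgeR adjusted p = 0.257). Itga9 (ENSMUSG00000039115, chromosome 9, 118606690 to 118901003) had the smallest absolute log2 fold change of the 10 chains, with 66.0, 60.2 and 49.8 CPM in WT and 50.9, 75.1 and 48.0 in IRF8KO. The groups overlapped, at 58.6 ± 8.21 and 58.0 ± 14.9 CPM (log2 fold change −0.014, SE 0.29; edgeR adjusted p = 0.979). Their signs changed with the processing.

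Against Itgb1, its partner, Itga9 stood higher in IRF8KO by 1.18 on the log2 ratio scale, Itga6 by 1.10 and Itga4 by 6.84. The 3 IRF8KO ratios lay above the 3 WT ratios in each case (exact permutation p = 0.1 each, 0.18 adjusted over the 9 pairs). The size for Itga4 is set by the 0.5 added to 2 WT libraries at 0 counts, and it was 6.15 with 1 added. For Itgav the log2 ratio to Itgb1 differed by 0.30, and the groups overlapped (exact permutation p = 0.6).

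**Figure D3:**
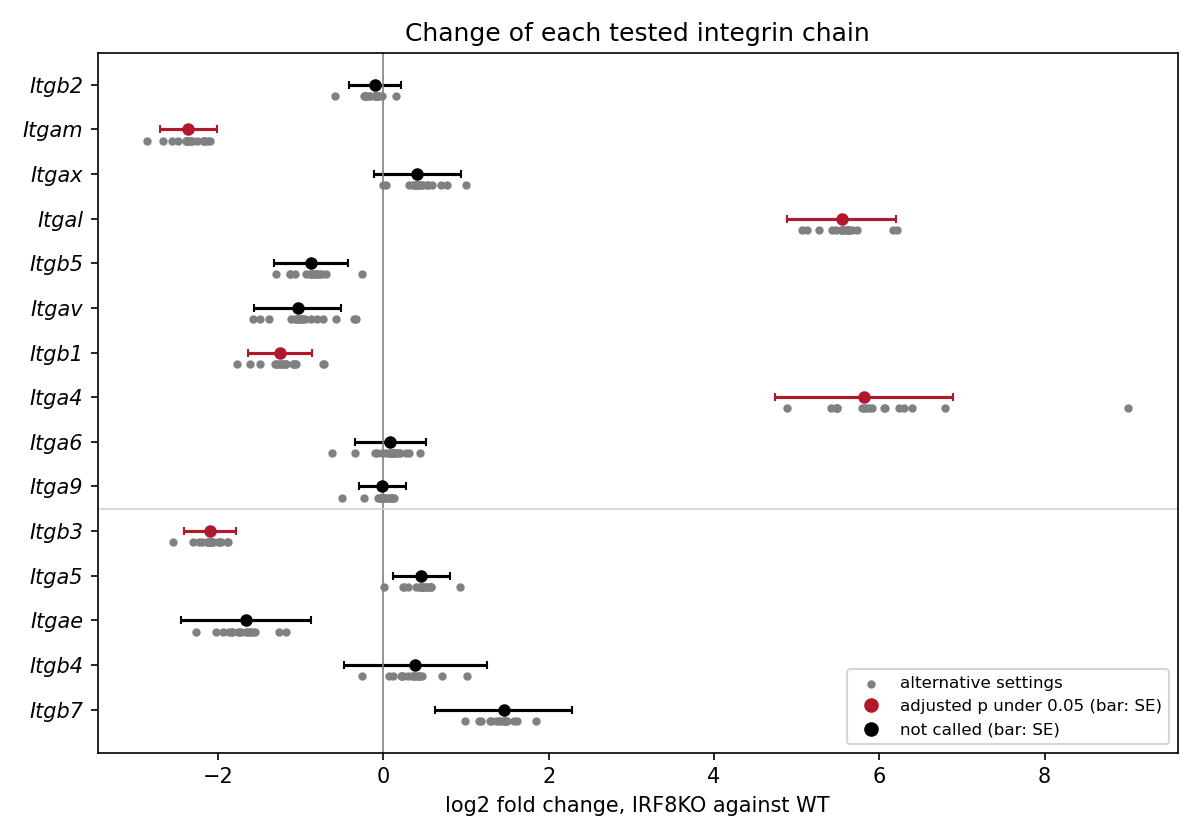
Log2 fold change of IRF8KO against WT (horizontal axis) for the 10 chains and, under the line, the 5 other tested chains, with bars of 1 standard error from edgeR's fit; red points were called, black were not, and small grey points are the alternative fits. Itgal (5.54) and Itga4 (5.81) stand to the right and Itgam (−2.36) to the left, with grey points on 1 side of 0.

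By level per countable kb, the order in WT ran Itgb5 (2130 ± 1225 CPM per kb), Itgb2 (331 ± 83.9), Itgam (44.2 ± 11.7) and Itgb1 (24.1 ± 9.82). Then came Itga9 (7.62 ± 1.07), Itga6 (5.63 ± 1.29), Itgav (3.23 ± 2.02) and Itgax (1.43 ± 0.840), with Itgal (0.268 ± 0.263) and Itga4 (0.00734 ± 0.0127) last. Neighbours from Itga9 to Itgax, and Itgal with Itga4, overlapped in their library values. In IRF8KO Itgb5 (1164 ± 347) and Itgb2 (307 ± 46.2) again led. Itgal (13.3 ± 4.32), Itgb1 (10.1 ± 4.01), Itgam (8.56 ± 2.83), Itga9 (7.54 ± 1.93) and Itga6 (5.95 ± 4.14) followed, each overlapping the next. Itgax (1.89 ± 0.142), Itgav (1.56 ± 0.802) and Itga4 (0.640 ± 0.563) came last. Itgal thus moved from ninth place to the third.

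IRF8KO replicate 2 was the highest IRF8KO library for Itga4, Itga6, Itga9, Itgam, Itgb1 and Itgav, and it also held neutrophil transcripts. The 10 neutrophil markers summed to 365 CPM there, led by S100a8 and Ngp, against 2.06 and 2.73 in the other IRF8KO libraries and at most 0.195 in WT. Their part in these values was not tested. Without that library Itgam was at −2.66, Itgb1 at −1.62, Itga4 at 4.88 and Itgal at 5.64, and edgeR called all 4 (adjusted p = 0.0013, 0.024, 0.022 and 6.7e-04).

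Markers of other cells were set beside Itgal and Itga4, which lymphocytes, monocytes and neutrophils also express. The 12 lymphocyte and NK cell markers summed to 0.195 to 0.414 CPM in WT and 4.33 to 5.83 in IRF8KO. Most of the IRF8KO sum was Cd4, a coreceptor that T cells and some macrophages carry, with 0 counts in WT and 26, 37 and 41 in IRF8KO (at least 34.6-fold higher, edgeR adjusted p = 0.0024). Cd3e, Cd3g, Cd8a, Ms4a1 and Ncr1 were at 0 counts in every library, which allows up to 3 counts in each. The 8 monocyte markers summed to 6.75 to 27.2 CPM in WT and 9.87 to 55.3 in IRF8KO. Of these, Nr4a1 had 6.34 to 25.7 CPM in WT and 7.92 to 30.0 in IRF8KO and was not called. Chil3, Plac8 and Ly6c2 had 386, 52 and 31 counts in IRF8KO replicate 2 and 0 in the other IRF8KO libraries. Fn1 was called higher, with means of 0.070 and 3.10 CPM, while Ccr2 had 13 counts in WT and 3 in IRF8KO. Border macrophage markers moved with genotype: all 8 of the 10 that could be tested were higher in IRF8KO, beside 9.64% of all tested genes. The 10 summed to 8.36 to 13.6 CPM in WT and 2155 to 2832 in IRF8KO, led by Pf4 (mean 1881) and Ms4a7 (413). Lyve1, which marks many border macrophages, was at 0 in every library, and Folr2 had 2 counts in each group. Of 10 microglia markers, 5 fell and 1 rose, with a sum of 27354 to 39528 CPM in WT and 20319 to 28137 in IRF8KO. Of all tested genes, 9.46% were called lower and 9.64% higher. The defining markers split: Tmem119 had 13491 ± 5981 and 6558 ± 2110 CPM and was not called (called lower in 5 of 19 alternatives), while P2ry12 fell 17.4-fold (37.3-fold without IRF8KO replicate 2), Gpr34 fell 8.75-fold (15.7-fold without it) and Sall1 went from 2904 counts to 0 in every IRF8KO library. The 7 platelet and megakaryocyte markers, a list that holds Itgb3, summed to 107 to 159 CPM in WT and 49.6 to 58.1 in IRF8KO. Itgb3 itself had means of 81.7 and 19.0 CPM in WT and IRF8KO, and Gp9 was not called. Treml1 had 30 counts in WT and 8 in IRF8KO, while Ppbp had 0 counts in WT and 5, 26 and 10 in IRF8KO. The 8 neuron and oligodendrocyte markers summed to 126 to 424 CPM in WT and 457 to 636 in IRF8KO, with Rbfox3 and Syt1 called higher. The call of Rbfox3 was lost without IRF8KO replicate 3 and that of Syt1 in 4 of the 6 fits that left out 1 library. Of the 8 astrocyte markers, Gfap, Aldh1l1 and Slc1a2 rose and Slc1a3 fell, and the calls of Gfap and Aldh1l1 were lost in 5 and 4 of those 6 fits. The 9 endothelial and mural markers summed to 18.3 to 22.4 CPM in WT and 10.1 to 10.9 in IRF8KO. Pecam1 among them fell 9.61-fold (edgeR adjusted p = 0.0014; 14.7-fold without IRF8KO replicate 3), and Flt1, not tested, had 0 counts in WT and 5, 88 and 59 in IRF8KO. Of the 8 dendritic cell markers Zbtb46 rose (2.49, edgeR adjusted p = 0.0014), and Siglech, also on the microglia list, was not called (−0.27). Clec9a, Cd209a, Ccr7 and Dpp4 were at 0 counts in every library. Flt3 had 31 counts in WT and 19 in IRF8KO, Xcr1 had 10 and 3, and neither was tested. The neutrophil receptor Cxcr2 had 0 counts in WT and 10, 46 and 16 in IRF8KO (at least 23.9-fold higher, edgeR adjusted p = 0.0071). The part of any of these cells in the integrin values was not tested.

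Of the other 16 integrin chains, 11 were too low to be tested. In all, 13 had counts and 5 were tested, and beside Itgb3 none of the tested chains was called. Itga5, the fibronectin receptor chain, had 60.1, 65.7 and 131 CPM in WT and 152, 99.8 and 101 in IRF8KO (0.46, edgeR adjusted p = 0.385), and without WT replicate 3 it was called higher (0.93, edgeR adjusted p = 0.011). Itgae, Itgb4 and Itgb7 stayed at or under 5.24 CPM in every library, with log2 fold changes of −1.66, 0.38 and 1.45 and edgeR adjusted p of 0.162, 0.792 and 0.241. Over all 26 chains, 15 were tested, 2 were higher and 3 lower (33.3% called, beside 19.1% of all tested genes).

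Of 33 ligand and counter-receptor genes, 19 were tested, 5 rose and 2 fell in IRF8KO, with a median log2 fold change of 0.094. The called share was 36.8%, beside 19.1% of all tested genes. Thbs1, a matrix protein that binds alpha-v integrins and CD47, had 7.78, 7.36 and 2.89 CPM in WT and 104, 168 and 68.2 in IRF8KO. C3, whose cleaved form iC3b is the ligand of complement receptors 3 and 4, had 1.56, 0 and 3.86 CPM in WT and 187, 128 and 125 in IRF8KO. On the log2 scale they rose by 4.24 (SE 0.46) and 6.47 (SE 0.85), at edgeR adjusted p of 1.0e-04 and 3.5e-04, and no group overlapped the other. With 8, 0 and 28 counts in WT the size for C3 is loosely set, from 5.70 without WT replicate 2 to 8.30 without WT replicate 3 and 8.69 with voom. C3 thus rose in the libraries in which Itgam fell.

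Npnt, a matrix ligand of integrins of the beta1 family, had 37.4, 30.7 and 20.8 CPM in WT and 0 counts in every IRF8KO library. Against a floor of 3 counts over the group it was at least 259-fold lower (edgeR adjusted p = 2.7e-05). For Emilin2, an extracellular matrix glycoprotein, WT held 2 counts and IRF8KO 2255, a scaled ratio of 1124 (exact 95% interval 311 to 9289, counting error only; edgeR adjusted p = 1.1e-06). Both WT counts of Emilin2 were in WT replicate 2, and without it the fitted log2 fold change moved from 9.97 to 12.41, so its size is loosely set. For Fn1, which encodes fibronectin, WT held 2 counts and IRF8KO 81, a ratio of 40.4 (10.8 to 339; edgeR adjusted p = 0.0066), and stayed under 5 CPM in every library. In each of these genes 1 group was at or near 0.

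No measured ligand of LFA-1 was called higher beside Itgal. Icam1 had 243, 230 and 442 CPM in WT and 237, 177 and 155 in IRF8KO, and the groups overlapped (−0.68, edgeR adjusted p = 0.171). It was called lower with library size alone (−1.14, edgeR adjusted p = 0.0046) and with library size without Apoe (−0.64, 0.046). F11r, the junctional adhesion molecule JAM-A, fell from 749 ± 13.6 to 297 ± 109 CPM (−1.33, SE 0.32; edgeR adjusted p = 0.014), a call lost without IRF8KO replicate 2 or 3. Icam2 stayed under 5 CPM. Plaur, the urokinase receptor and a surface partner of complement receptor 3, rose from 45.5 ± 13.1 to 135 ± 44.2 CPM (1.57, SE 0.33; edgeR adjusted p = 0.0063). Vcam1, the ligand of VLA-4, had 0.389 to 5.45 CPM in WT and 0.434 to 1.97 in IRF8KO. Mfge8, which bridges dying cells to alpha-v integrins, had 59.3, 63.2 and 162 CPM in WT and 227, 108 and 166 in IRF8KO (0.82, edgeR adjusted p = 0.192), and it was called without WT replicate 3 (1.46, 0.0030) and with the GC and length correction (0.94, 0.041). Tgfb1 and Nrros, a cytokine whose latent form alpha-v integrins release and its microglial anchor, were at 0.48 and −0.19 (edgeR adjusted p = 0.361 and 0.749), and Tgfb1 was called without WT replicate 3 (0.93, edgeR adjusted p = 0.0092). Cd47, a surface partner of integrins, was at 0.094 (edgeR adjusted p = 0.886) and was called higher with the GC and length correction (0.91, 0.0078). Emilin1, a matrix ligand of VLA-4, had 5.16 ± 2.84 and 10.3 ± 1.99 CPM (0.97, edgeR adjusted p = 0.228).

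**Figure D4:**
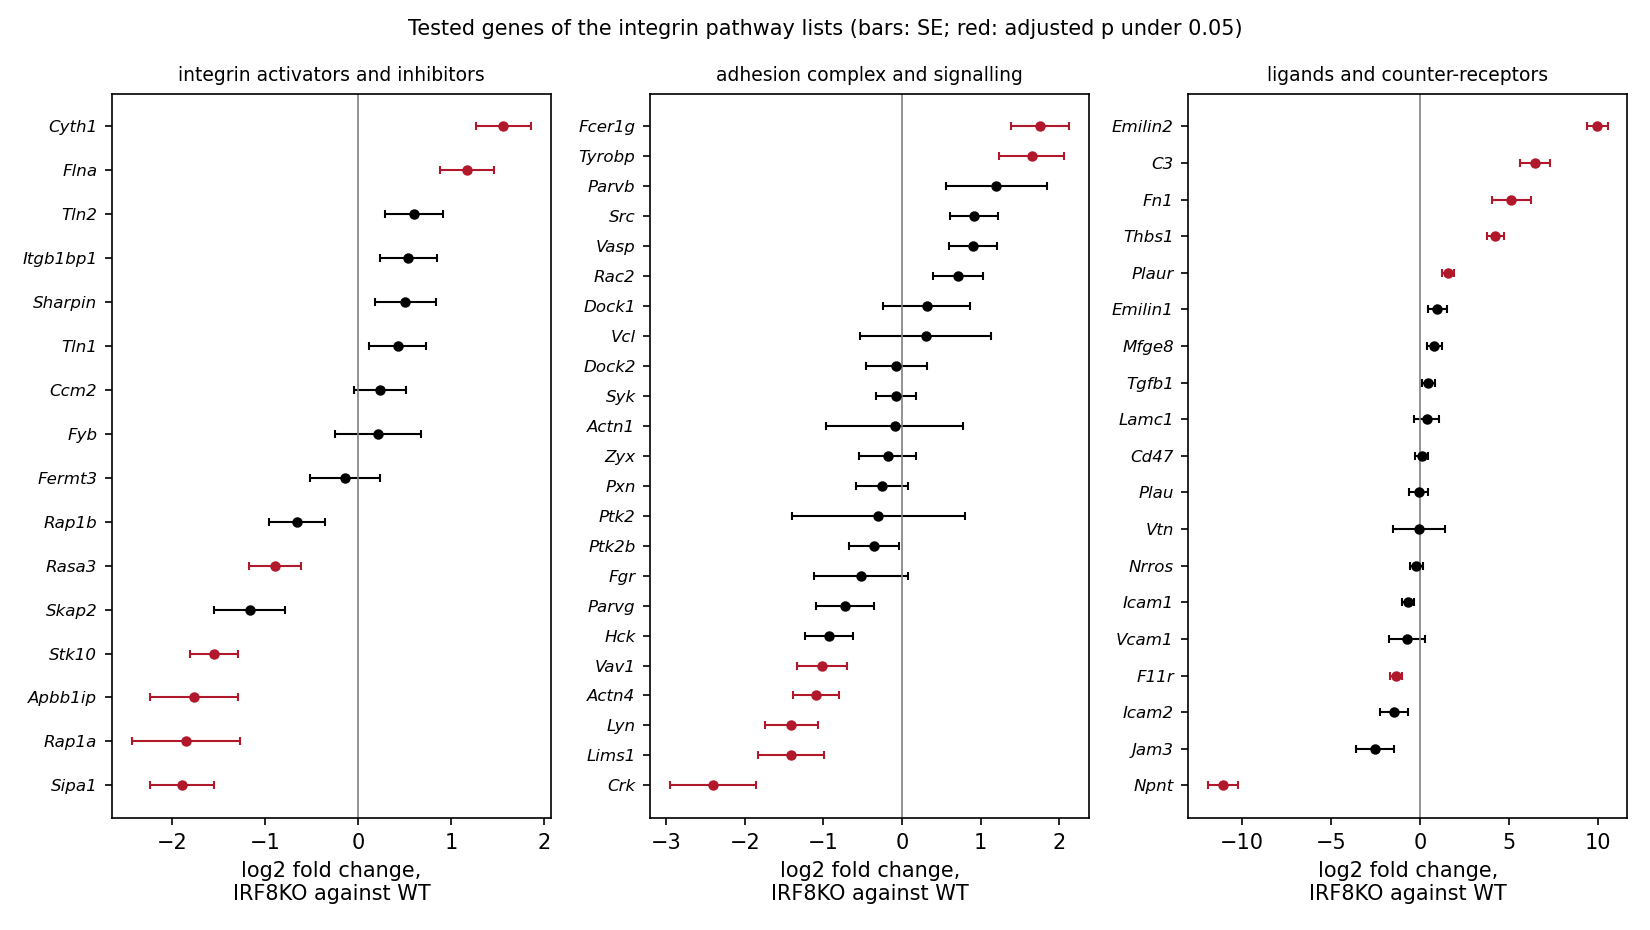
Log2 fold change of IRF8KO against WT (horizontal axes, which differ in range) for every tested gene of 3 lists, 1 panel a list, with bars of 1 standard error from edgeR's fit and called genes in red; the values of Npnt, Emilin2 and Fn1, with 0 to 2 counts in 1 group, depend on the prior count. Rises and falls are mixed in each panel, with list medians from −0.19 to 0.094.

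Of 20 activators and inhibitors, 16 were tested, 2 rose and 5 fell, with a median of 0.039 (43.8% called, beside 19.1% of all tested genes). Talin-1 (Tln1) and kindlin-3 (Fermt3), the final activators of integrins in blood-derived cells, had 412 ± 114 and 554 ± 99.1 CPM and 1491 ± 734 and 1352 ± 229 CPM in WT and IRF8KO, at 0.43 and −0.14 (edgeR adjusted p = 0.365 and 0.828). Without WT replicate 3 Tln1 was called (0.70, edgeR adjusted p = 0.017). The clearest changes lay upstream. Sipa1, which switches off the integrin-activating GTPase Rap1, fell from 1142 ± 419 to 308 ± 51.5 CPM (−1.89, SE 0.34; edgeR adjusted p = 0.0030). Stk10, a kinase known to restrain LFA-1 in lymphocytes, had 105, 100 and 111 CPM in WT and 35.3, 36.1 and 36.8 in IRF8KO (−1.54, SE 0.26; edgeR adjusted p = 0.0016). Cyth1, cytohesin-1, which binds the beta2 tail, had 44.6, 50.3 and 55.3 CPM in WT and rose to 148 ± 44.1 in IRF8KO (1.56, SE 0.30; edgeR adjusted p = 0.0038). All 3 were called in 19 of 19 alternatives.

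Weaker calls in that list were Rap1a (−1.85, edgeR adjusted p = 0.044), Apbb1ip (−1.76, 0.022), which links Rap1 to talin, and Flna (1.17, 0.015), filamin A, which competes with talin for the beta tail. Rasa3, another regulator of Rap1, fell as well (−0.89, edgeR adjusted p = 0.044). All 4 calls were lost in at least 4 of the 6 fits without 1 library. Both activating and restraining genes are thus found among the decreases. Rap1b, at 190, 178 and 110 CPM in WT and 88.3, 125 and 90.3 in IRF8KO, was not called (−0.66, edgeR adjusted p = 0.150). It was called without WT replicate 3 (−0.82, edgeR adjusted p = 0.021). With the GC and length correction Rap1b was at −0.044, and Apbb1ip was at −0.86 and lost its call (edgeR adjusted p = 0.065). Skap2, an adaptor between Rap1 and talin, had 66.4 ± 22.3 CPM in WT and 29.5 ± 11.8 in IRF8KO and just missed the threshold (−1.16, edgeR adjusted p = 0.0503). It was called in 7 of 19 alternatives and was at −0.29 with the GC and length correction. Tln2 and Sharpin, at 0.60 and 0.51 (edgeR adjusted p = 0.203 and 0.305), were called without WT replicate 3 (0.97, 0.0055 and 0.95, 0.0084). Fyb, Itgb1bp1 and Ccm2 were at 0.22, 0.54 and 0.24 (edgeR adjusted p = 0.776, 0.240 and 0.591), with no call in any alternative.

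Of 27 adhesion complex and signalling genes, 23 were tested, 2 rose and 5 fell, with a median of −0.19. The called share was 30.4%, beside 19.1% of all tested genes. The 2 that rose encode the membrane adaptors through which beta2 integrins and Fc receptors reach the kinase Syk. Fcer1g had 771, 1018 and 1537 CPM in WT and 4280, 2835 and 4097 in IRF8KO, and Tyrobp (DAP12) 1401, 1861 and 3409 CPM in WT and 7641, 5543 and 7731 in IRF8KO. No group overlapped the other. On the log2 scale they rose by 1.75 (SE 0.37) and 1.65 (SE 0.41), at edgeR adjusted p of 0.0071 and 0.016. With the GC and length correction Tyrobp was at 0.55 and lost its call (edgeR adjusted p = 0.090), and Fcer1g was at 0.81 and kept it (0.025), losing it with a replicate block added (0.84, 0.053). The call of Fcer1g was also lost without IRF8KO replicate 3, and that of Tyrobp in 4 of the 6 fits that left out 1 library.

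Syk itself, the kinase that these adaptors recruit, had overlapping groups, with 178, 204 and 191 CPM in WT and 191, 176 and 175 in IRF8KO (−0.082, SE 0.26; edgeR adjusted p = 0.853). Lyn, a Src-family kinase, fell from 229 ± 81.0 to 86.3 ± 20.7 CPM (−1.41, edgeR adjusted p = 0.013), and Crk, an adaptor of the adhesion complex, from 30.0 ± 17.0 to 5.63 ± 2.55 (−2.40, edgeR adjusted p = 0.0099, and −1.69 with the GC and length correction). Actn4, Lims1 and Vav1 fell as well, at −1.10, −1.41 and −1.02 (edgeR adjusted p = 0.023, 0.035 and 0.044). Each of these 5 lost its call without at least 2 of the 6 libraries. Of the 19 alternatives, 14 called Actn4, 12 Vav1 and 10 Lims1, whose log2 fold change ran from −1.99 to −0.49. Over the 4 lists, 22 of 63 tested genes were called (34.9%, beside 19.1% of all genes), 9 higher and 13 lower. Of the 22, 10 were called in all 6 fits that left out 1 library.

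For Itgam, the chain with the largest fitted decrease, and Itga4, with the largest fitted increase (Itgal was above it in 3 of the 17 alternatives that tested both), the genes with the most similar profile over the 6 libraries were listed by Pearson correlation of log2 CPM. For Itgam these were P2ry13, a purinergic receptor (r = 0.999), Ino80c (0.996) and Fech (0.996), with 874 genes at 0.9 or above. P2ry13 had 982, 1126 and 703 CPM in WT and 128, 236 and 125 in IRF8KO. For Itga4 they were Mrpl33, Arhgap15 and Creb3l3 (0.989, 0.988 and 0.988), with 332 genes at 0.9 or above. With 6 libraries in 2 separate groups, such values are a description.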

How the data were processed

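Per the labels' protocols, polyadenylated RNA of sorted microglia was copied with SMART-Seq v4 and tagged with Nextera XT, which mark neither strand nor molecules, so PCR copies remain and counting intervals and floors cover counting error only. The authors deposited raw counts of uniquely mapped reads per gene in the layout STAR writes; the submitters' processing notes name STAR 2.5.2b, Picard 2.17.11, bcl2fastq, Subread, featureCounts and mm10. The annotation release is not given in the sources used here. Own-strand shares were 49.8% to 50.3%, and the counts without regard to strand were used. Summary lines stayed out of library sizes; ambiguous reads were 8.20% to 10.8% of unique reads.

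Of 49585 identifiers, 49326 matched GENCODE M21 (GRCm38), the source of symbols and coordinates. The test was that of edgeR 4.0.16 under R 4.3.3 (filterByExpr, minimum count 10; TMM; quasi-likelihood F test, genotype only; Benjamini-Hochberg over 11041 genes; called under 0.05), and the code was checked on simulated data. Standard errors came from the F statistic. CPM per kb used exonic bases shared with no other gene. Chain ratios added 0.5 to each count.

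The members, gene lists and tests were chosen with earlier results of these data known. Genes named are the 10 members, the other tested chains, the 4 smallest p-values among called genes of each list, ligands or activators of called members with a mean of at least 10 CPM, and the 3 genes most like 2 members; the rest of those named (weaker called genes, Syk, Vcam1, Icam2, Tgfb1, Nrros and single markers) were chosen after their values were seen. Alternatives were library size alone or without Apoe, RLE factors, DESeq2 1.42.0, voom in limma 3.58.1, other filters, stranded counts, overlapping genes' counts, a GC and length offset, a replicate block, and leaving out each library.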

Additional observations from a re-analysis of the deposited data

How the results depend on the processing

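Over all genes, 2109 were called, 910 to 4003 when 1 library was left out (fewest without IRF8KO replicate 3, most without WT replicate 3), and of the pathway genes 22, or 10 to 37. Of the chains 4 were called, and 3 to 5 when 1 library was left out, 6 with library size alone, and 2 where at least 10 counts were asked of every library, since Itgal and Itga4 could not be tested there. The replicate numbers were not taken as pairs, since the sources used here do not say that they pair animals. In their deviations from the group means, same-numbered WT and IRF8KO libraries correlated at −0.26, 0.33 and 0.11. Libraries of different number correlated at −0.42 to 0.35. Deviations within a group are not independent, so these values cannot decide pairing. With a replicate block edgeR called 2353 genes and the same number of chains, 4, and Itga6 was at −0.10; with the block and the GC offset 2277 genes were called. Among the chains and pathway genes named by the rules above, signs of uncalled ones turned as follows, and the causes were not tested. Further uncalled genes of the lists also turned, such as Dock2, which kept its sign in 12 of 19 alternatives. With library size alone Itgax was at −0.00032, Itga6 at −0.35, Itgb4 at −0.26, Tln1 at −0.058, Fyb at −0.35, Itgb1bp1 at −0.0029, Ccm2 at −0.24 and Cd47 at −0.45. Itga6 was at −0.073 with voom. Itga9 was at 0.026 with RLE factors, 0.026 with DESeq2, 0.0015 with opposite-strand counts, 0.12 with the GC offset and 0.10 with the block and the GC offset. With 1 library left out, log2 fold changes ran from −0.23 to 0.15 for Itgb2, −0.63 to 0.44 for Itga6, −0.24 to 0.12 for Itga9, −0.38 to 0.37 for Fermt3, −0.14 to 0.54 for Fyb, −0.42 to 0.26 for Nrros and −0.16 to 0.34 for Cd47. The log2 ratio difference ran from −1.24 to 0.47 for Itgav to Itgb5 and from −0.047 to 1.29 for Itgb5 to Itgb1. Over the chains and pathway genes named by those rules alone, 778 of the alternative values kept direction and side of the threshold, 48 lost a call, 26 gained one and 26 turned sign. Among the 10 chains, depth limits Itga4 and Itgal in WT most, with 4 and 51 counts over 3 libraries.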
